A study of Mus musculus with 3 samples.

Results

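The kinetochore is the protein assembly that forms on the centromere of each chromosome and binds spindle microtubules during cell division. Its inner layer, the constitutive centromere-associated network, sits on nucleosomes that carry the histone variant Cenpa. Its outer layer, built around the Ndc80 and Mis12 complexes, holds the microtubules, and a fibrous corona on its surface carries the motor Cenpe. The spindle assembly checkpoint reads unattached kinetochores through Ttk, Bub1 and the Mad proteins, and holds back Cdc20, the activator of the anaphase-promoting complex, until all chromosomes are attached. Primitive erythroblasts of the mouse embryo circulate as nucleated cells and go on dividing in the blood at midgestation while they mature.

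The genes described here are 36 kinetochore, checkpoint and mitotic chromosome genes, chosen by symbol from a list and found in both tables of the study, among 15058 genes in all. Some have other main roles: Cenpj encodes a centriole protein, and Top2a and Mki67 encode a topoisomerase and a chromosome surface protein of dividing cells. Erythroblasts in circulating blood were sorted at E10.5 by the transferrin receptor CD71 and the red-cell antigen Ter119, and their total RNA was sequenced. The first library (Drosha-null) held CD71+ Ter119-high cells of conditional knockout (cKO) embryos with the genotype Drosha fl/fl;cdh5-cre+, with Drosha labelled as null. The second (Ter119-low) held CD71+ Ter119-low cells of cKO embryos of the same genotype, with Drosha labelled as abundant as in wild type. The third (control) held CD71+ Ter119-high cells of Drosha fl/fl or Drosha fl/+ embryos, labelled as wild type for Drosha. All groups therefore carried at least 1 floxed allele of Drosha, whose product makes the first cut in microRNA processing, in the nucleus. The Cre recombinase was driven by Cdh5, a gene of endothelial cells, so recombination in blood cells depends on their descent from cells that used this gene. Each library came from blood pooled from 5 embryos, per the design text. Each group had 1 library, so the variation between pools of embryos is not known and no p-value is given. A Ter119-low control library was not analysed here, so gate and genotype cannot be told apart when the Ter119-low library is set against the control.

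Total counts were 9325814 in the Drosha-null, 9418474 in the Ter119-low and 9497425 in the control library. Drosha itself had 122 counts in the Drosha-null library, 244 in the Ter119-low library and 324 in the control. Counts over the whole gene include reads outside the deleted part and so do not measure intact Drosha RNA. Erythroblast markers were abundant in every library, with the 10 listed genes summing to 1573158 counts in the Drosha-null, 2150514 in the Ter119-low and 2337204 in the control library. The 10 endothelial markers summed to 232 counts in the Drosha-null, 83 in the Ter119-low (Tie1 and Cldn5 at 0) and 79 in the control library. The 6 cardiac muscle markers summed to 295 counts in the Drosha-null, 56 in the Ter119-low and 74 in the control library. The macrophage markers found (7 of 9 symbols) summed to 40 counts in the Drosha-null, 6 in the Ter119-low (5 of them at 0) and 30 in the control library. Of the symbols not found, Adgre1 is a newer name of Emr1, which was found. The megakaryocyte and platelet markers found (5 of 6) summed to 176 counts in the Drosha-null, 124 in the Ter119-low and 101 in the control library. Of the 5 neutrophil and mast cell markers only Mpo was found, with 23 counts in the Drosha-null, 0 in the Ter119-low and 6 in the control library, and of the hepatocyte markers 2 of 4 were found, with at most 4 counts a library. Summed counts of other cells' markers, not scaled, were thus small in all libraries and higher in the Drosha-null library. Single markers differed: Ttn held 181 of the 295 cardiac counts and Pecam1 55 of the 232 endothelial counts in the Drosha-null library. Cd68 (13 counts in the Drosha-null, 17 in the control library) and Gp9 (11 and 14) were not higher. The part of these cells in the differences below was not tested.

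Many genes that peak in G2 and mitosis carry a pair of short elements near their start, the cell cycle genes homology region (CHR, read by the DREAM and MuvB complexes) and CCAAT boxes (read by the factor NF-Y). The promoters of 4 members are shown because these genes had large or precisely counted differences in both directions: Cenpa had the lowest Drosha-null to control ratio and Mki67 the most counts, whereas the ratios of Spc25 and Cdc20 were among the highest. Each window runs from 250 bases before to 50 bases after the annotated start on the gene's strand, in RefSeq's sequence of GRCm38.p6, and capitals mark matches to CHR (TTTGAA or TTCGAA) and CCAAT, searched on both strands. The windows are at chr5:30666636-30666935 on the plus strand (Cenpa), chr7:135716330-135716629 on the minus strand (Mki67), chr2:69206164-69206463 on the minus strand (Spc25) and chr4:118437294-118437593 on the minus strand (Cdc20).
Cenpa: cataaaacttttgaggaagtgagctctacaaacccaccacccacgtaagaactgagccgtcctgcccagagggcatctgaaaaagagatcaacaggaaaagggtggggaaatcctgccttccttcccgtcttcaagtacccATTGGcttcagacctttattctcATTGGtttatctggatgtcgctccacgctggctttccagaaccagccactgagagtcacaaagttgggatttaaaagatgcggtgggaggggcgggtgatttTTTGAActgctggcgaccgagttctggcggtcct
Mki67: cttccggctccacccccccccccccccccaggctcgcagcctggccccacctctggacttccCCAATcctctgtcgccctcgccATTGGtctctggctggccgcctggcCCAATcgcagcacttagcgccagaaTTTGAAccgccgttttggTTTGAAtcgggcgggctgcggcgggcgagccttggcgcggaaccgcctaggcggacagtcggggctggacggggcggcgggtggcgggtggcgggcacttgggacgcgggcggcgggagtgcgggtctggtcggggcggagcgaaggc
Spc25: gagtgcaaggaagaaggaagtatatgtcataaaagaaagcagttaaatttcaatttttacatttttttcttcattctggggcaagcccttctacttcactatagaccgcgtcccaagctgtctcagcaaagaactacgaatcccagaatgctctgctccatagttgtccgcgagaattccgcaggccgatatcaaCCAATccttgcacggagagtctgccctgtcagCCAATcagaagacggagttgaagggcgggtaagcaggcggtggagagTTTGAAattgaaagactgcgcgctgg
Cdc20: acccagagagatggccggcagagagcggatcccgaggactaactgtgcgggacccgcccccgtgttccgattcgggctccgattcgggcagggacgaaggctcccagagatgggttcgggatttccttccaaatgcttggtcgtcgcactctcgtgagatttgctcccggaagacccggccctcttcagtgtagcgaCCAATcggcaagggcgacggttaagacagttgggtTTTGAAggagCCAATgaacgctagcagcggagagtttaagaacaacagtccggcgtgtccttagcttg

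All 4 windows shown hold CHR and CCAAT matches, which do not overlap each other. This does not hold for all members with large Drosha-null to control ratios. Cenpj (0.74), Cenpk (−0.88), Cenpo (−0.81) and Cenpb (−0.74) had no CHR match in any window. In Cenpa the CHR match lies at bases 17 to 22 after the start, with CCAAT matches on the minus strand at −109 and −86. In Cdc20 it lies at −18 to −13, between CCAAT matches at −53 and −8, and in Spc25 at 25 to 30, after CCAAT matches at −55 and −23. Mki67 holds 2 CHR matches, at −116 and −98. Promoter windows were found for 34 of the 36 members, all except Spc24 and Zwilch. A CHR match was present for 19 of the 34 (55.9%), against 21.7% of 27025 genes with a window, and both elements were present for 17 (50%), against 8.61%. The E2F letters TTTCCCGC or TTTGGCGC were found for 3 members, Cenpb, Cenpl and Cenpm, against 1.80% of genes. The 19 members with a CHR match had Drosha-null over control log2 ratios from −1.15 to 0.75 (median 0.16). The 15 without one ranged from −0.88 to 0.74 (median −0.11). The ranges overlap almost completely, and with 1 library a group no test of this split was made.

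All 36 members were detected in all libraries, with 62 to 17965 counts in the Drosha-null, 55 to 21186 in the Ter119-low and 54 to 20003 in the control library. Levels are given as CPM (counts scaled to a common total) scaled by TMM, a factor that sets the bulk of genes equal between libraries, per kilobase of deposited gene length, so that genes of different length can be compared. The median level of the members was 13.9 in the Drosha-null, 14.8 in the Ter119-low and 14.4 in the control library, against 2.80 (Drosha-null), 2.94 (Ter119-low) and 2.94 (control) over all detected genes. Levels above the median detected gene were found for 35 members in the Drosha-null, 35 in the Ter119-low and 34 in the control library. The mitotic genes were thus well above the middle of the transcriptome in all of the erythroblast libraries.

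**Figure D1:**
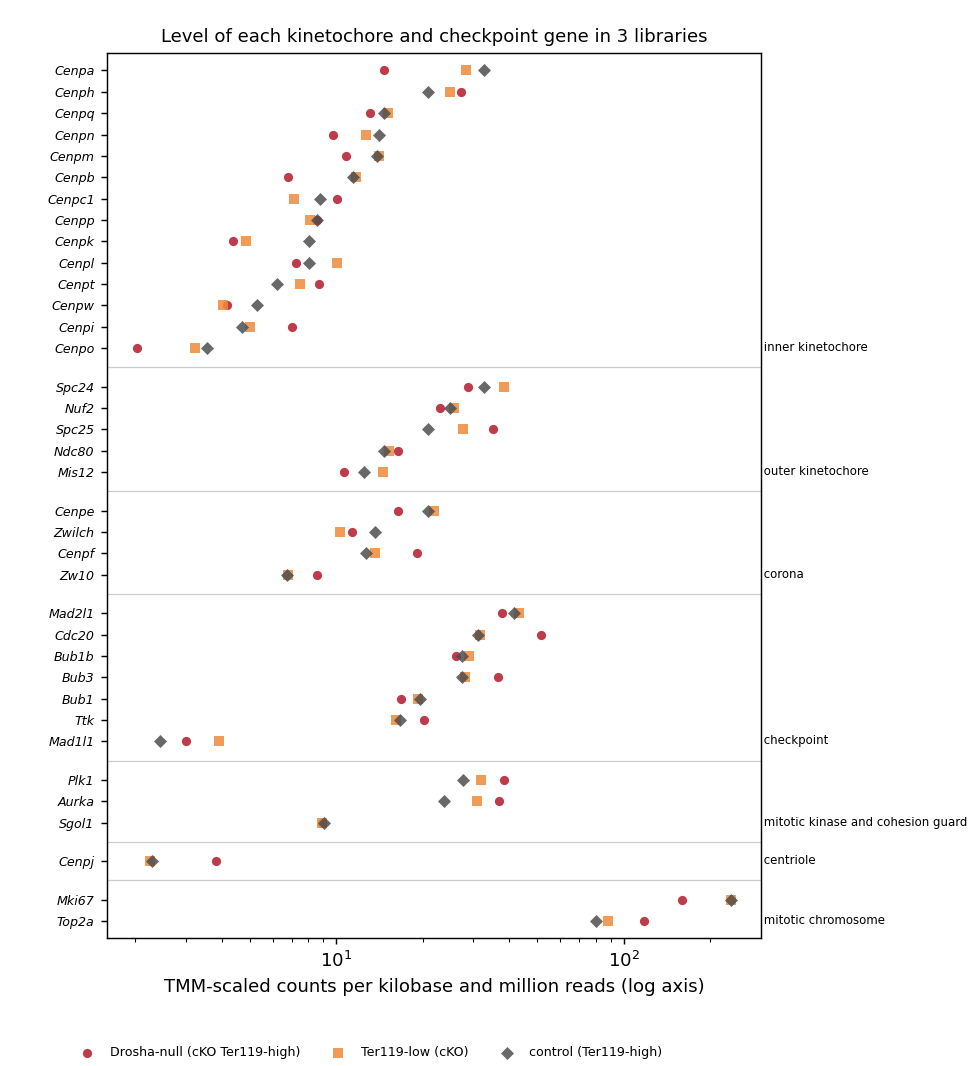
Level of each of the 36 genes (TMM-scaled CPM per kilobase, log axis) in the Drosha-null library (circles), the Ter119-low library (squares) and the control (diamonds), 1 library each and so without error bars. Genes are grouped by role and ordered within each group by the control level. Mki67 and Top2a stand to the right of all others, and the circle of Cenpa lies at 14.7, against 28.3 for the square and 32.6 for the diamond.

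Mki67, which coats mitotic chromosomes and is a common marker of dividing cells, was the most abundant member, with a level of 160 in the Drosha-null library, 235 in the Ter119-low library and 236 in the control. Top2a, which untangles sister DNA molecules, came next with 118 in the Drosha-null, 88.3 in the Ter119-low and 79.9 in the control library. These 2 genes held 59.5% of all members' counts in the Drosha-null, 65.7% in the Ter119-low and 66.4% in the control library, so sums over the list mostly describe them. The third place was taken by Cdc20 in the Drosha-null library (51.3) and by the checkpoint protein gene Mad2l1 in the Ter119-low (43.2) and control (41.7) libraries. The lowest level was that of Cenpo in the Drosha-null library (2.02), and that of Cenpj in the Ter119-low (2.25) and control (2.28) libraries. Cenpa stood at place 18 in the Drosha-null library, at 14.7, at place 9 in the Ter119-low library, at 28.3, and at place 5 in the control, at 32.6.

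The members together took 0.447% of all counts in the Drosha-null library (exact 95% binomial interval 0.443% to 0.452%), 0.408% in the Ter119-low library (0.404% to 0.413%) and 0.373% in the control (0.369% to 0.377%). After TMM scaling the order was different, with 3743 summed CPM in the Drosha-null library, 4318 in the Ter119-low library and 4214 in the control. The log2 ratio of the sum, Drosha-null over control, was −0.17 (95% counting interval −0.19 to −0.15), and 0.10 (0.06 to 0.13) when Mki67 and Top2a were left out. The sign of the summed difference thus turned when these 2 genes were left out together, and by total counts it was positive (0.26). Of the 2, Mki67 was lower in the Drosha-null library (−0.56) and Top2a was higher (0.56). In bulk RNA, fewer cells in mitosis and less of an RNA per mitotic cell cannot be told apart. Intervals here and below cover counting error only, since each group has 1 library. They may be too narrow even for that, because reads counted without molecular identifiers may be copies of 1 molecule.

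The first comparison set the Drosha-null library against the control, cells of the same gate that differ in the Drosha label. They also differ in genotype: cdh5-cre is named for the cKO embryos only, and control embryos could be Drosha fl/+. These differences cannot be told apart. By TMM the 10 erythroblast markers were lower in the Drosha-null library here (median log2 ratio −0.84), with 10 intervals below the control, against 30.8% of all genes. Total counts add 0.43 to each ratio. By them Gata1, with 729 counts in the Drosha-null and 632 in the control library, stood above the control. Epor, with 1151 and 1177 counts, came close to it. The part of maturation in this comparison was not tested. The members lay on both sides of the control: the mitotic kinases Aurka and Plk1, the anaphase activator Cdc20, the outer kinetochore gene Spc25, the inner kinetochore genes Cenpi and Cenpt, the corona gene Cenpf, the centriole gene Cenpj and Top2a were higher by 0.48 to 0.75 on the log2 scale. The inner kinetochore genes Cenpa, Cenpk, Cenpo, Cenpb and Cenpn and the chromosome gene Mki67 were lower by 0.53 to 1.15. Genes were called when the ratio was at least 2 either way and the 95% counting interval excluded 1. Of the 36 members 0 were called higher, against a background of 12.4% of the 10769 genes that reached 1 CPM in at least 1 of the libraries compared. Only Cenpa was called lower, against 7.79%. With a ratio of 1.5, 5 members were called higher (background 19.5%) and 4 lower (17.6%). The interval excluded 1 at any ratio for 13 members above the control (36.1%, against 29.1% of all genes) and 10 below it (27.8%, against 30.8%). The members' median log2 ratio was −0.05, beside −0.02 over all genes, and their middle range ran from −0.29 to 0.43, beside −0.47 to 0.52. The members' shares at ratios of 1.5 and 2 lay under those of all genes, and their median lay close to that of all genes. The background holds genes down to 1 CPM, whereas members had at least 62 counts in the Drosha-null and 54 in the control library. The part of abundance in these shares was not tested.

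**Figure D2:**
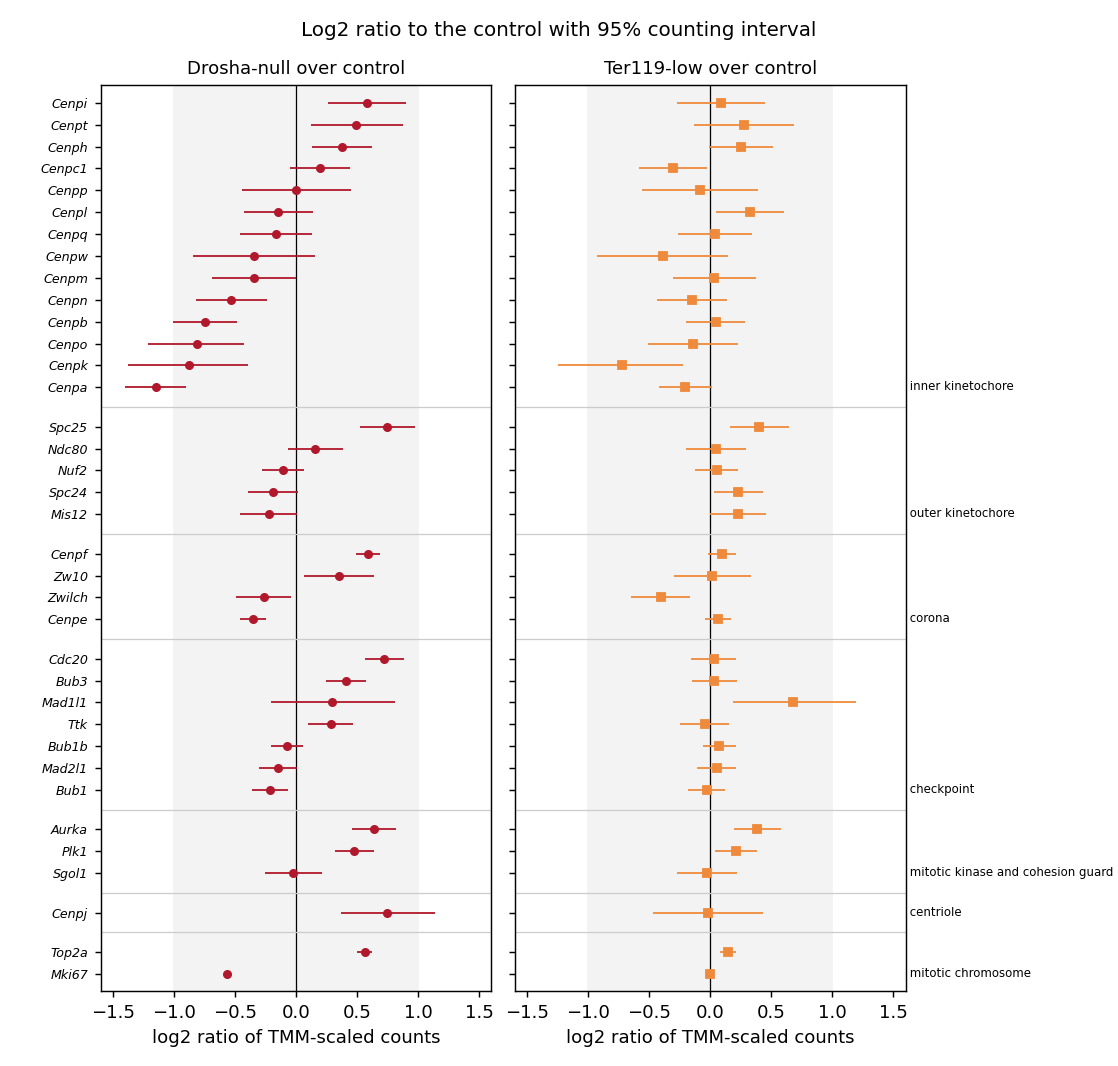
Log2 ratio of TMM-scaled counts to the control for each of the 36 genes, Drosha-null library (left) and Ter119-low library (right). Bars are exact 95% counting intervals, 1 library a group, and the grey band spans ratios under 2 either way. On the left the points run from −1.15 (Cenpa) to 0.75 (Spc25), and on the right most lie close to 0, with Cenpk lowest and Mad1l1 highest. By total counts all points on the left would stand 0.43 higher and those on the right 0.10 higher.

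The sign of many members depended on the scaling. TMM and total counts differ by a constant 0.43 on the log2 scale in this comparison, and the median of all genes stood at 0.43 by total counts. By TMM 17 members stood above 0 and 19 below (48.9% and 51.1% of all genes), whereas by total counts 30 stood above and 6 below, with a median of 0.38. The 6 were Cenpa, Cenpb, Cenpk, Cenpn, Cenpo and Mki67. Total counts would call Aurka, Cdc20, Cenpf, Cenpi, Cenpj and Spc25 higher, against 23.0% of all genes, and 0 members lower, against 2.70%. Relative to the median of all genes, the members' order is the same under either scaling. By total counts 74.0% of all genes stood above 0. Ratios and intervals below are by TMM unless another scaling is named, and by total counts each Drosha-null interval stands 0.43 higher, so that whether it includes 1 can change.

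Among the 14 inner kinetochore genes, 3 had intervals above the control in the Drosha-null library and 6 below it (median −0.25, a sign that turns by total counts, which add 0.43). Cenpa, the centromeric histone H3 variant, had 219 counts in the Drosha-null library, 337 in the Ter119-low library and 366 in the control. The Drosha-null library was thus the low one, with a log2 ratio to the control of −1.15 (−1.40 to −0.90), while the Ter119-low library stood at −0.20 (−0.42 to 0.01). By total counts the Drosha-null ratio was −0.71, under the ratio of 2, and so the call rests on the scaling while the direction does not. Cenpb, which binds a short motif of centromeric satellite DNA, had 213 counts in the Drosha-null, 294 in the Ter119-low and 269 in the control library, a ratio to the control of −0.74 (−1.01 to −0.48) in the Drosha-null library and 0.04 (−0.20 to 0.29) in the Ter119-low library.

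Cenpk, a subunit of the Cenph-Cenpi-Cenpk-Cenpm group, had 62 counts in the Drosha-null library, 55 in the Ter119-low library and 86 in the control, so both cKO libraries were below the control (Drosha-null −0.88, −1.37 to −0.39, and Ter119-low −0.72, −1.24 to −0.22). Its partners Cenph and Cenpi stood above the control in the Drosha-null library. Cenph had 374 counts in the Drosha-null, 274 in the Ter119-low and 217 in the control library (0.38, 0.13 to 0.63, Drosha-null over control) and Cenpi had 246 in the Drosha-null, 140 in the Ter119-low and 124 in the control library (0.58, 0.26 to 0.90). Cenpm, the fourth subunit, had 147 counts in the Drosha-null, 153 in the Ter119-low and 141 in the control library and a ratio of −0.35. Its interval ended just below 0. The subunits of this group therefore did not share a direction.

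Cenpo, a subunit of a further inner complex with Cenpp and Cenpq, had 98 counts in the Drosha-null, 125 in the Ter119-low and 130 in the control library, a ratio of −0.81 (−1.21 to −0.43) for the Drosha-null library. Exons of Cenpo overlap those of Adcy3 on the other strand over 19.0% of its exon bases, and the sources used here do not say whether strand was kept in counting. Exons of Cenpp overlap those of Ippk over 12.3% of its exon bases in the same way. Cenpp (101 counts in the Drosha-null, 76 in the Ter119-low and 76 in the control library) and Cenpq (211 in the Drosha-null, 194 in the Ter119-low and 178 in the control library) had intervals that included 1 in the Drosha-null library, with ratios of 0.00 and −0.16. Cenpn, which recognises the Cenpa nucleosome, had 192 counts in the Drosha-null, 200 in the Ter119-low and 209 in the control library (−0.53, −0.82 to −0.24), and its partner Cenpl had 230 in the Drosha-null, 255 in the Ter119-low and 192 in the control library (−0.15, −0.43 to 0.14). Cenpl has a deposited length that differs between the tables, which moves its FPKM ratio, as the closing section gives.

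The DNA-facing histone-fold genes Cenpt and Cenpw, whose products pair with each other, had different ratios. Cenpt, which also recruits the Ndc80 complex, had 172 counts in the Drosha-null, 118 in the Ter119-low and 92 in the control library (0.49, 0.12 to 0.88). Cenpw had 71 counts in the Drosha-null, 55 in the Ter119-low and 68 in the control library and an interval that included 1 (−0.35, −0.85 to 0.16). By total counts both stood above 0, Cenpt at 0.93 and Cenpw at 0.09. Cenpc1, which bridges the Cenpa nucleosome and the Mis12 complex, had 357 counts in the Drosha-null, 202 in the Ter119-low and 235 in the control library. Its ratio was 0.19 (−0.05 to 0.44) in the Drosha-null library, and −0.30 (−0.58 to −0.03) in the Ter119-low library.

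Of the 5 outer kinetochore genes, Spc25 alone had an interval that excluded 1 in the Drosha-null library. Spc25, a subunit of the Ndc80 complex at its centromere end, had 532 counts in the Drosha-null library, 335 in the Ter119-low library and 239 in the control. The ratio was 0.75 (0.52 to 0.97), the highest of all 36 members, and the Ter119-low library also stood above the control (0.40, 0.16 to 0.65). Its direct partner Spc24 had 431 counts in the Drosha-null, 460 in the Ter119-low and 370 in the control library, with −0.19 (−0.39 to 0.02) in the Drosha-null and 0.23 (0.03 to 0.43) in the Ter119-low library. The deposited counts of Spc24 were fractional, which whole reads of 1 gene would not give, so its values are uncertain. The microtubule-binding subunits Ndc80 (402 counts in the Drosha-null, 298 in the Ter119-low and 272 in the control library) and Nuf2 (617 in the Drosha-null, 551 in the Ter119-low and 501 in the control library) had Drosha-null ratios of 0.16 and −0.11 with intervals that included 1. Mis12, which joins inner and outer layers, had 328 counts in the Drosha-null, 359 in the Ter119-low and 289 in the control library and a ratio of −0.23 (−0.46 to 0.01).

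The corona genes split evenly. Cenpf, a large farnesylated protein of the corona whose RNA builds up in G2, had 2374 counts in the Drosha-null library, 1347 in the Ter119-low library and 1189 in the control, a ratio of 0.59 (0.49 to 0.69) for the Drosha-null library. Its deposited counts were fractional as well. Zw10, part of the complex that brings dynein to kinetochores, had 279 counts in the Drosha-null, 177 in the Ter119-low and 165 in the control library (0.35, 0.07 to 0.64). Below the control stood the kinesin motor gene Cenpe, with 1424 counts in the Drosha-null, 1523 in the Ter119-low and 1372 in the control library (−0.35, −0.46 to −0.25), and Zwilch, the partner of Zw10, with 352 counts in the Drosha-null, 255 in the Ter119-low and 319 in the control library (−0.27, −0.49 to −0.04). By total counts Cenpe stood above 0, so its direction depends on the scaling, and Zwilch did as well.

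Among the 7 checkpoint genes, 3 had intervals above the control in the Drosha-null library and 1 below it (median 0.28). Cdc20, which activates the anaphase-promoting complex once the checkpoint is satisfied, had 1026 counts in the Drosha-null library, 507 in the Ter119-low library and 469 in the control. The Drosha-null count was the highest, with a ratio to the control of 0.72 (0.56 to 0.88), against 0.03 (−0.16 to 0.21) for the Ter119-low library. Bub3, the WD-repeat adaptor that brings Bub1 and Bub1b to kinetochores, had 834 counts in the Drosha-null, 513 in the Ter119-low and 473 in the control library (0.41, 0.25 to 0.58). The kinase gene Ttk, known as Mps1, had 649 counts in the Drosha-null, 413 in the Ter119-low and 402 in the control library (0.28, 0.10 to 0.47).

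Bub1, a checkpoint kinase, had 814 counts in the Drosha-null, 741 in the Ter119-low and 713 in the control library, and a ratio of −0.22 (−0.36 to −0.07), which is above 0 by total counts. Bub1b, which encodes BubR1 of the mitotic checkpoint complex, had 1063 counts in the Drosha-null, 944 in the Ter119-low and 845 in the control library, and Mad2l1, which encodes the Mad2 protein that captures Cdc20, had 723 in the Drosha-null, 664 in the Ter119-low and 604 in the control library. Their Drosha-null ratios of −0.08 and −0.15 had intervals that included 1. Mad1l1, the kinetochore anchor of Mad2, had 88 counts in the Drosha-null, 92 in the Ter119-low and 54 in the control library, the fewest of the checkpoint genes, with ratios to the control of 0.29 (−0.21 to 0.81) in the Drosha-null and 0.68 (0.18 to 1.20) in the Ter119-low library. The Drosha-null ratios of Bub1b and Mad2l1, whose products hold Cdc20, thus lay within counting error of the control by TMM. By total counts they did not, and stood at 0.36 and 0.29.

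The kinase genes Aurka and Plk1 stood above the control in both cKO libraries. The kinase genes Ttk and Bub1, counted with the checkpoint, did not: their Ter119-low ratios were −0.05 and −0.03, with intervals that included 1. Aurka, which acts at spindle poles, had 779 counts in the Drosha-null library, 524 in the Ter119-low library and 378 in the control, with ratios of 0.63 (0.46 to 0.82) for Drosha-null and 0.39 (0.19 to 0.58) for Ter119-low. Plk1, which acts from mitotic entry to cytokinesis, had 943 counts in the Drosha-null, 627 in the Ter119-low and 511 in the control library, with ratios of 0.48 (0.32 to 0.63) for Drosha-null and 0.21 (0.04 to 0.38) for Ter119-low. The cohesin protector gene Sgol1 had 359 counts in the Drosha-null, 286 in the Ter119-low and 275 in the control library and ratios of −0.02 for Drosha-null and −0.03 for Ter119-low. Cenpj, needed for centriole growth, had 187 counts in the Drosha-null, 88 in the Ter119-low and 84 in the control library, with a ratio of 0.74 (0.37 to 1.14) in the Drosha-null library and −0.02 in the Ter119-low library.

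The mitotic chromosome genes stood on opposite sides of the control. Top2a had 6851 counts in the Drosha-null library, 4102 in the Ter119-low library and 3501 in the control, so the Drosha-null library was the highest (0.56, 0.50 to 0.62). Mki67 had 17965 counts in the Drosha-null, 21186 in the Ter119-low and 20003 in the control library, so it was the lowest there (−0.56, −0.59 to −0.53), and by TMM the Ter119-low interval included 1 (−0.00, −0.03 to 0.03). By total counts the Drosha-null ratios were −0.13 for Mki67 and 0.99 for Top2a. The Ter119-low ratio of Mki67 was 0.09 by total counts and −0.03 after subtraction of the median of genes of like length, both outside that interval.

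Ratios of 2 genes within a library do not depend on the scaling of libraries, and they show unequal change only. The pairs were partners of a complex or of related function, picked after their values had been seen, so their ratios are a description and their intervals give counting error only. The count of Top2a per count of Mki67 was 0.381 in the Drosha-null library, 0.194 in the Ter119-low library and 0.175 in the control, a 2.18-fold difference between the Drosha-null library and the control (log2 1.12, exact 95% interval 1.06 to 1.19). The Ter119-low ratio lay nearer to that of the control than to that of the Drosha-null library.

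Cenpf per Cenpe was 1.67 in the Drosha-null, 0.884 in the Ter119-low and 0.867 in the control library (log2 difference 0.94, 0.80 to 1.09). Cdc20 per Mad2l1 was 1.42 in the Drosha-null, 0.764 in the Ter119-low and 0.776 in the control library (log2 0.87, 0.64 to 1.10). Here too the Drosha-null ratio was the highest of the libraries. Spc25 per Spc24 was 1.23 in the Drosha-null, 0.728 in the Ter119-low and 0.646 in the control library (log2 0.93, 0.63 to 1.24). Cenph per Cenpk was different in that both cKO libraries, at 6.03 (Drosha-null) and 4.98 (Ter119-low), stood above the control at 2.52. Zw10 per Zwilch was 0.793 in the Drosha-null, 0.694 in the Ter119-low and 0.517 in the control library, and Cenpt per Cenpw was 2.42 in the Drosha-null, 2.15 in the Ter119-low and 1.35 in the control library. For other partners the interval of the difference between the Drosha-null library and the control included 0: Ndc80 per Nuf2 (−0.02 to 0.55), Bub1b per Bub1 (−0.06 to 0.34), Aurka per Plk1 (−0.08 to 0.40) and Cenpl per Cenpn (−0.03 to 0.79).

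**Figure D3:**
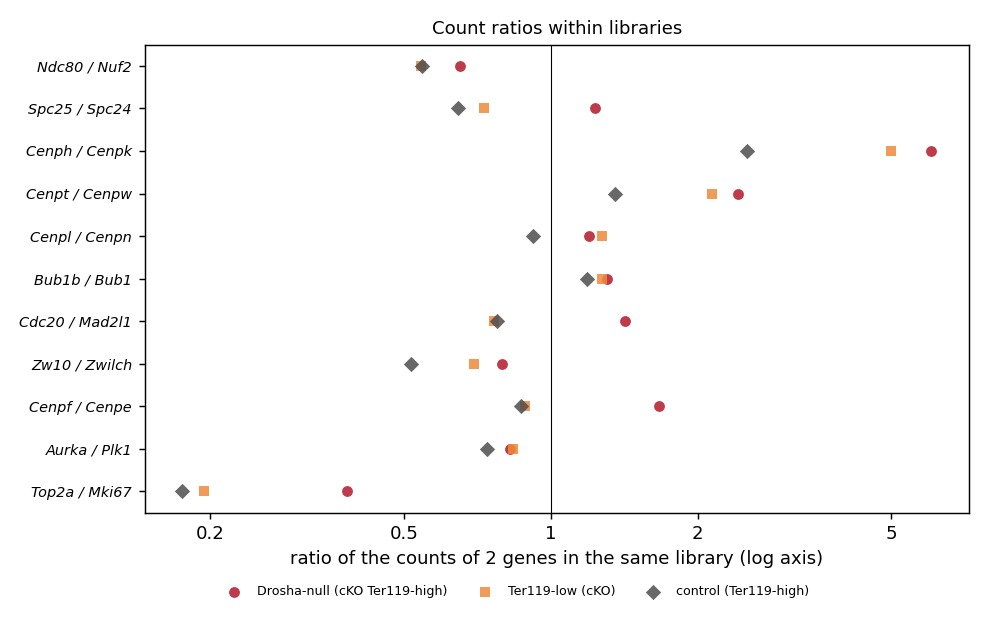
Ratio of the counts of 2 genes in the same library (log axis) for 11 pairs, in the Drosha-null library (circles), the Ter119-low library (squares) and the control (diamonds), 1 library each. For Cenpf / Cenpe the circle stands at 1.67, against 0.884 (Ter119-low) and 0.867 (control), and for Top2a / Mki67 at 0.381, against 0.194 (Ter119-low) and 0.175 (control).

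Across all 10769 genes the Drosha-null over control log2 ratio was higher for longer genes (Spearman's rho 0.31, a description across genes that share the same libraries). Among the 36 members rho was 0.10. With genes cut into 10 classes by length, class medians ran from −0.59 for the shortest genes to 0.29 for the longest. Members of like length lay far apart: Spc25 (1364 bases, the mean of deposited lengths of 1318 and 1410) stood at 0.75 and Cenpa (1337 bases) at −1.15. Cenpf (11130 bases) stood at 0.59 and Mki67 (10098 bases) at −0.56. Relative to the median of their length class, 20 members stood above and 16 below, with a median of 0.11. Spc25 then stood at 1.03, Cdc20 at 0.87, Mki67 at −0.86, Cenpa at −0.87 and Cenpo, the lowest, at −0.98. After this subtraction the call of Cenpa was lost, leaving 0 members called lower (5.72% of all genes), and 1 member, Spc25, was called higher (12.01% of all genes).

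**Figure D4:**
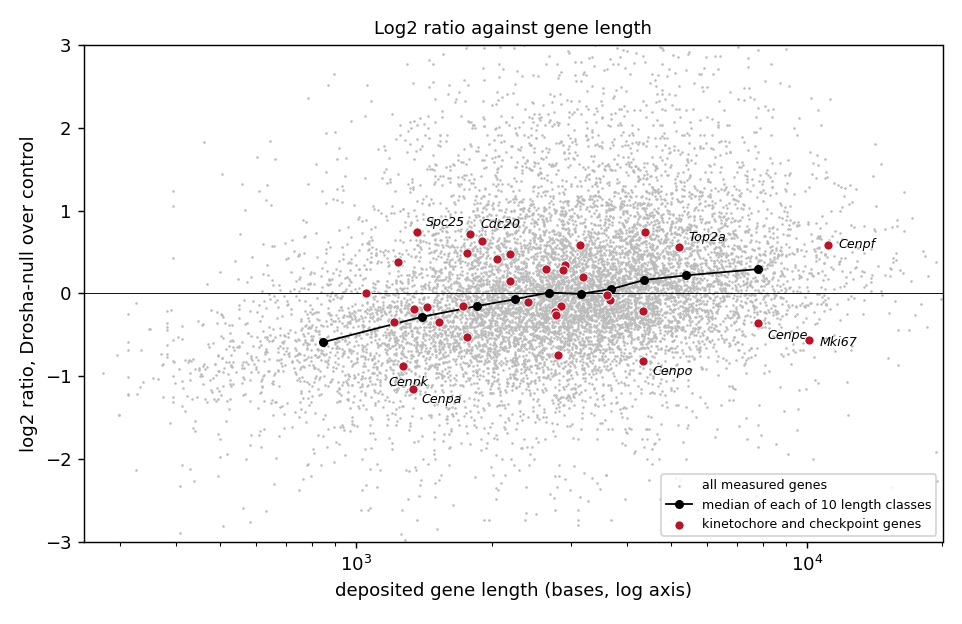
Drosha-null over control log2 ratio against deposited gene length (log axis) for all measured genes (grey) and the 36 members (red), with the median of each of 10 length classes (black line). The line rises from −0.59 to 0.29, and members of similar length, such as Spc25 and Cenpa, lie on both sides of it. Genes beyond the axis limits are not drawn.

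The second comparison set the Ter119-low library against the control. Differences were small for most members, and the highest and lowest were Mad1l1 at 0.68 and Cenpk at −0.72. Of the 36 members 0 were called higher (background 2.9% of 10591 genes) and 0 lower (2.76%), and at a ratio of 1.5 Mad1l1 was called higher (5.13%) and Cenpk lower (4.9%). Intervals excluded 1 for 8 members above the control (13.5% of all genes) and 3 below it (14.2%). The 8 were Top2a (0.14), Plk1 (0.21), Spc24 and Mis12 (0.23 each), Cenpl (0.32), Aurka (0.39), Spc25 (0.40) and Mad1l1. The 3 were Cenpc1, Zwilch (−0.41) and Cenpk. All 5 outer kinetochore genes were above 0, with a median of 0.23, although for Ndc80 and Nuf2 the intervals included 1.

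The median log2 ratio of the members was 0.04, beside 0.00 over all genes, and the sum of their counts stood at 0.04 (0.01 to 0.06). By TMM 23 members stood above 0 and 13 below (50.1% and 49.9% of all genes), and by total counts 29 and 7 (63.1% of all genes above 0). The Ter119-low and Drosha-null comparisons share the control library, so their values are set side by side only.

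The third comparison, Drosha-null over Ter119-low, was between libraries of cKO embryos. It gave 0 members called higher (background 10.8% of 10795 genes) and 0 lower (5.94%), and at a ratio of 1.5 it gave 2 higher (18.2%) and 3 lower (14.8%). The 2 higher ones were Cenpj (0.76, 0.39 to 1.15) and Cdc20 (0.69, 0.54 to 0.85). The 3 lower ones were Cenpa (−0.94, −1.20 to −0.69), Cenpb (−0.79, −1.05 to −0.53) and Cenpo (−0.67, −1.07 to −0.28). Intervals excluded 1 for 12 members above the Ter119-low library (27.4% of all genes) and 13 below it (29.4%), including Cenpf (0.49), Top2a (0.42), Mki67 (−0.56) and Cenpe (−0.42). By TMM 19 members stood above 0 and 17 below (48.8% and 51.2% of all genes), and by total counts 25 and 11 (71.3% of all genes above 0). The median was 0.02 by TMM and 0.36 by total counts, beside −0.02 and 0.33 over all genes. This comparison differs in the Ter119 gate as well as in the Drosha label. Scaled by TMM, the 10 erythroblast markers were lower in the Drosha-null library by a median of 0.75 on the log2 scale. They were also lower against the control of the same gate (median −0.84). Total counts add 0.34 here. By them Gata1 (729 counts in the Drosha-null, 628 in the Ter119-low library) and Epor (1151 and 1138) stood above the Ter119-low library. The part of maturation in the members' differences was not tested.

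The other genes of mitosis were taken from 8 lists that exclude the members. Their ratios below are by TMM, and values between −0.43 and 0 in the Drosha-null library turn sign by total counts. Calls against the control change as well. By total counts the genes called lower below fall short of a ratio of 2, while Ccnb2 and Mastl, among others, would be called higher. That scaling called 23.0% of all genes higher and 2.70% lower. In the Drosha-null library against the control, 11 genes of mitotic entry had the highest median (0.41), with 8 intervals above the control, 0 below it and 0 genes called. Over all genes 29.1% of intervals lay above the control and 30.8% below it, which is the background for the interval counts of all the lists. The cyclin B2 gene Ccnb2 stood at 0.64, the Greatwall kinase gene Mastl at 0.70 and the cyclin A2 gene Ccna2 at 0.36. In the Ter119-low library this list had a median of 0.11, with 3 intervals above the control (13.5% of all genes) and 0 below it (14.2%). With 1 library a group, the difference between the lists and the members was not tested.

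The anaphase-promoting complex and its regulators (22 of 23 found) had a median of −0.19 in the Drosha-null library, with 4 intervals above the control, 11 below it and 2 genes called lower, the small subunit genes Cdc26 (−1.31) and Anapc11 (−1.15), and 0 called higher. Its most abundant members per length were the ubiquitin-conjugating enzyme gene Ube2c (0.57) and Anapc5 (−0.24). Of the 5 genes of the chromosomal passenger complex and centromere cohesion (median 0.01, 2 intervals above the control and 2 below it), Birc5, which encodes survivin, stood at −0.73 and Cdca8, which encodes borealin, at −0.53. Inner kinetochore and loading genes outside the members (9 found of 12 symbols, median −0.13) included Stra13, now named Cenpx, which was called lower (−1.10). The symbols not found were newer names of genes that were found. The Cenpa loading factor gene Hjurp stood at 0.03. Stra13 (655 bases) and Cdc26 (794 bases) belong to the shortest length class, whose median was −0.59, whereas Anapc11 (3376 bases) does not. Outer kinetochore and corona genes outside the members (14 found of 16 symbols, median −0.10) had 2 intervals above the control and 6 below it. The symbols not found, Knl1 and Spdl1, are newer names of Casc5 and Ccdc99, which were found. The Mis12 complex genes Nsl1 and Pmf1 stood at −0.78 and −0.64, and Casc5, which encodes the Bub1 scaffold Knl1, at 0.07.

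Cohesin (13 found of 14 symbols, median 0.00) had 3 intervals above the control and 2 below it. The symbol not found, Wapl, is a newer name of Wapal, which was found. Condensin (8 genes, median 0.03) had 1 interval above and 2 below, and both lists had 0 genes called. The cohesin core genes Smc3 and Rad21 stood at 0.01 and 0.22, the establishment factor genes Esco2 and Cdca5 (sororin) at 0.49 and −0.33, and the condensin core genes Smc4 and Smc2 at 0.32 and −0.27. Among 12 regulators of G2/M transcription (median −0.08, 4 intervals above the control and 5 below it), E2f4, the repressor subunit of DREAM, was called lower, with 649 counts in the Drosha-null library, 1031 in the Ter119-low library and 1020 in the control (−1.06, −1.20 to −0.92). Mybl2, the activator of the MuvB complex, stood at −0.67 and Tfdp1, the dimer partner of E2F factors, at −0.48. In the Ter119-low library 0 genes of the 8 lists were called. The background for the Drosha-null calls is the 12.4% higher and 7.79% lower given above.

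**Figure D5:**
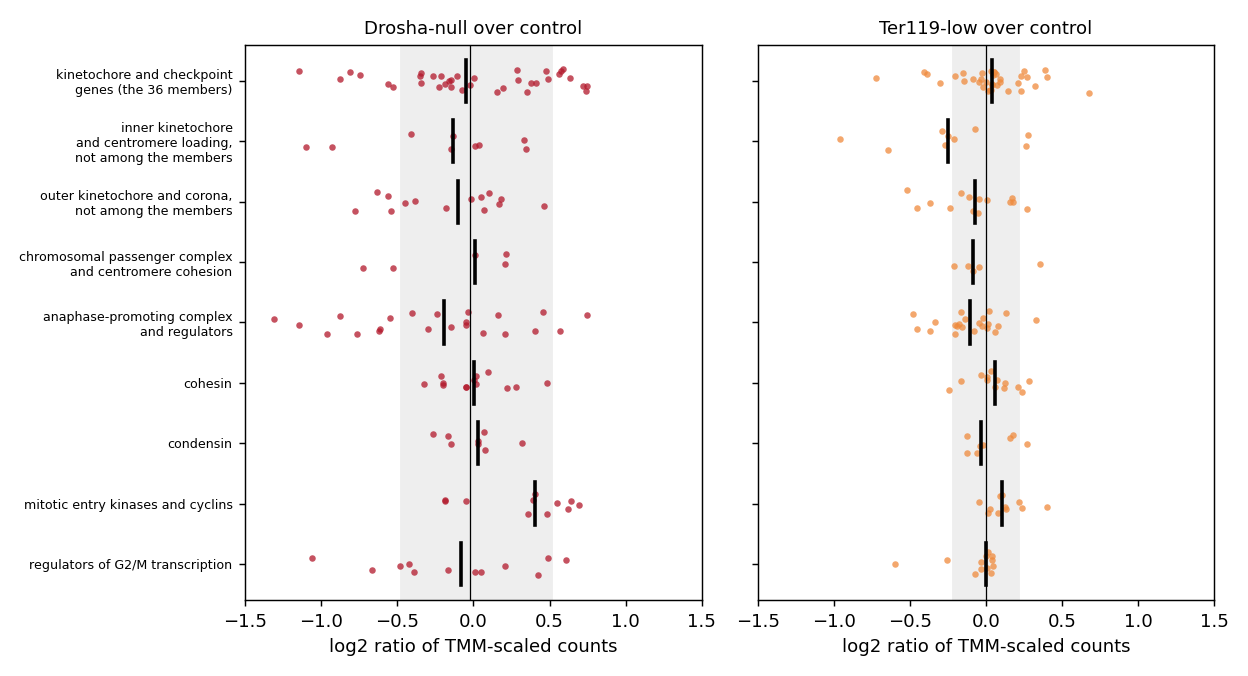
Log2 ratio to the control of each gene of the 36 members and of 8 further lists of mitotic genes, in the Drosha-null library (left) and the Ter119-low library (right). Thick bars are list medians, the grey band is the middle range of all measured genes (between the quartiles) and the thin line their median. Mitotic entry genes have the highest list median on the left (0.41), and the list medians on the right lie between −0.25 and 0.11. By total counts all points would stand 0.43 higher on the left and 0.10 higher on the right, which turns the sign of the negative medians on the left. Vertical scatter within a row is only for visibility.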

How the data were processed

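The members and gene lists were chosen with earlier results of these data known. Per the file headers, each of the 2 deposited tables gives expected counts and FPKM values made by the authors, in which 0.001 stands for 0 counts. They also hold the authors' log2 ratio of FPKM, a p-value and an FDR score, which exceeds 1 for some genes; p-value and FDR were not used. The sources used here name no aligner, counting program, strand setting or build. Both tables were joined by gene ID (13882 shared genes, 0 with different control counts), genes in 1 table only got 0 in the other, 21 symbols turned into dates were restored from RefSeq, lengths were averaged and counts rounded.

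Scaling was by TMM in edgeR 4.0.16 (factors 1.19 for the Drosha-null, 0.946 for the Ter119-low and 0.885 for the control library). Log2 ratios used 0.5 added counts and exact 95% Clopper-Pearson intervals. A gene was measured in a comparison when 1 of its libraries reached 1 CPM. No test was fitted, since groups have 1 library. Pair ratios used exact conditional odds ratios. The procedure was tested on simulated counts that held counting error only. That test therefore says nothing about variation between pools or about copied reads. Alternatives were total counts, DESeq2 1.42.0 size factors, FPKM, length classes, 2 added counts, no CPM filter and a ratio of 1.5. Members are all reported; from each further list the 2 most abundant genes per length and the 2 with the largest log2 ratios, where 1 library reached 10 CPM, are named, except 1 gene that is not reported here. Promoters are from RefSeq GRCm38.p6 and exon overlaps from GENCODE M21. R 4.3.3, Python 3.11.15, SciPy 1.17.1, pandas 2.3.3 and matplotlib 3.10.9 were used.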

Additional observations from a re-analysis of the deposited data

How the results depend on the processing

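With 1 library per group the intervals hold counting error only. Scaling by DESeq2's size factors, 2 added counts or no CPM filter left all 108 member log2 ratios within their intervals. Total counts moved 63 of them, FPKM 62 and length-class subtraction 19. In the Drosha-null library against the control, members called higher and lower numbered 6 and 0 by total counts (23.0% and 2.70% of all genes), 6 and 0 by FPKM (23.8% and 3.63%), 1 and 0 after length-class subtraction (12.01% and 5.72%), and 5 and 4 at a ratio of 1.5 (19.5% and 17.6%). The median was 0.38 by total counts and 0.39 by FPKM. The summed log2 ratio was 0.26 by total counts, −0.15 by DESeq2's factors, 0.10 without Mki67 and Top2a and 0.43 by FPKM. The FPKM sums here and below add values per length, so they are a different measure from summed counts and give long genes less weight. For Cenpl, whose deposited length differs between the tables (3141 and 2553 bases), the ratio was 0.06 by FPKM and 0.29 by total counts. The length of Spc25 differs as well (1318 and 1410 bases), and its ratio was 1.29 by FPKM and 1.18 by total counts.

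In the Ter119-low library against the control, 1 member was called higher and 1 lower at a ratio of 1.5 (5.13% and 4.90% of all genes), and the sum was 0.13 by total counts, 0.062 without the 2 members with the most counts and 0.16 by FPKM. For Drosha-null over Ter119-low, 2 were called higher by total counts (18.7% of all genes), 2 by FPKM (19.5%), and 2 higher and 3 lower at a ratio of 1.5 (18.2% and 14.8%). The median was 0.36 by both total counts and FPKM. The sum was 0.13 by total counts, −0.18 by DESeq2's factors, 0.035 without those 2 members and 0.28 by FPKM. The constant by which total counts shift all log2 ratios accounts for their values. For the other settings the cause was not tested. No paired analysis was possible because each group has 1 library.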
